A study of Rattus norvegicus with 6 samples.

Results

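The 5 genes described here are the standard transcript markers of neurons that release GABA or glutamate. They are Gad1 (ENSRNOG00000000007), Gad2 (ENSRNOG00000018200), Slc32a1 (ENSRNOG00000015393), Slc17a6 (ENSRNOG00000016147) and Slc17a7 (ENSRNOG00000020650), and they were taken by identifier from a table of 32402 rat genes. All 5 were found and all 5 passed the low-count filter, which kept 16344 genes. RNA was sequenced from the paraventricular nucleus (PVN), a cell group of the hypothalamus, in male rats of the Holtzman stock. One group was labelled control, with no injection or diet given in the labels. The other received 10 mg/kg of furosemide, a diuretic that causes sodium to be lost in urine, and was then kept for 24 h on distilled water and food low in sodium. The drug, the water and the food cannot be told apart here, and furosemide stands for them together below. Each group had 9 rats, and tissue from 3 rats was pooled for each library, giving 3 libraries per group. The question was how transcripts of this nucleus stood after acute loss of sodium.

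GABA, the main inhibitory transmitter of the brain, is made from glutamate by glutamate decarboxylase. Gad1 encodes GAD67, the form found throughout the cell, and Gad2 encodes GAD65, the form attached to vesicles at nerve endings. Slc32a1 encodes VGAT, the transporter that loads GABA and glycine into vesicles. Glutamate, the main excitatory transmitter, is loaded by vesicular glutamate transporters, of which Slc17a6 encodes VGLUT2 and Slc17a7 encodes VGLUT1. VGLUT2 is the form of most hypothalamic glutamate neurons, including many neurons of the PVN, whereas VGLUT1 is typical of cortex and hippocampus. GABA neurons are dense in the zone around the PVN and send inhibitory input into it.

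Gad1 and Gad2 share a biochemical task, as do Slc17a6 and Slc17a7, but across the libraries the counts of the first pair kept a steady ratio and those of the second did not. The second ratio moved mainly with Slc17a7, which was counted only 11 to 138 times. Ratios of other gene pairs were not set beside these. The sequence just before the start of each of these 4 genes is shown so that the genes of a pair can be compared. The sequences are from RefSeq (build GRCr8, forward strand, 5′ to 3′) and end at the base before the annotated start of each gene. Capitals mark matches on either strand to any of 4 short motifs. The first is the TATA box, searched as TATAAA. The second is the GC box, which binds factors of the Sp family and was searched as GGGCGG. The third is the core of the cAMP response element, searched as TGACG. The last is the CCAAT box, searched by the letters of its name.
Gad1, chr3:75777202-75777259: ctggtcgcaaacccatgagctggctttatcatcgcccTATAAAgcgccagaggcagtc
Gad2, chr17:89671618-89671717: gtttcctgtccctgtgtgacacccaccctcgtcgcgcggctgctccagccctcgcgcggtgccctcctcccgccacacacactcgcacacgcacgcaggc
Slc17a6, chr1:110348347-110348446: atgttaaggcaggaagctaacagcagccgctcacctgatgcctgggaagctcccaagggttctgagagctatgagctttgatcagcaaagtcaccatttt
Slc17a7, chr1:104786072-104786171: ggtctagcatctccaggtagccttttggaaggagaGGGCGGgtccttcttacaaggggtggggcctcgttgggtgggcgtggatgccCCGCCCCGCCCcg

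The Gad1 stretch held 1 match, to the TATA box, and that of Slc17a7 held 3, all to the GC box, of which 1 pair overlapped by a base. The printed stretches of Gad2 and Slc17a6, which are shorter than the full RefSeq windows, held 0 matches. Their GC content was 55.2% for Gad1, 71% for Gad2, 50% for Slc17a6 and 67% for Slc17a7. Among all 33469 RefSeq windows of 300 bases around a gene start, 14.2% held the TATA box letters, 33.1% those of the GC box, 21.2% those of the response element core and 37.5% those of the CCAAT box. In its own window of that length Gad1 held the TATA and GC boxes, Gad2 the CCAAT box, Slc17a6 the response element core and Slc17a7 the GC box. The window of Gad1 begins only 58 bases before the annotated start of the gene. Its printed stretch is therefore shorter than the others, and its GC box is not within the printed bases but reaches past the annotated start. Most of its window lies after that start, so it is not placed like the windows of the other members. The window of Slc32a1 held the GC box, the response element core and the CCAAT box. A match is a description of the sequence only.

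The deposited values are read counts, and the 6 libraries held between 20911950 and 22495415 counts each. Levels are given as CPM, which are counts scaled to a common library size after TMM adjustment. Levels are compared here between libraries and not between genes, because transcript lengths were not used. Neither the tissue nor the presence of other cell types could be checked against marker genes, since only the 5 members could be paired with symbols. In pooled bulk tissue, fewer cells of a type and less RNA per cell cannot be told apart.

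The edgeR quasi-likelihood test of furosemide against control called none of the 5 genes (0), with 0% called among all genes tested, at an adjusted p of 0.05. At an unadjusted p under 0.05 there was 1 member, Slc17a7, where 8.09% of all tested genes reached that level. DESeq2 gave 4 of the 5 an adjusted p, leaving out Slc17a7, and called 0 of them (0.365% of the 10957 genes it gave one). At an unadjusted p under 0.05 it had 0 of the 5 (3.00% of the 22994 genes with a count). Limma-voom, run with an estimated quality weight for each library, called 0 of the 5 after adjustment (0% of all genes tested). It had 0 before adjustment (8.41%). The edgeR exact test called 0 after adjustment (0.275% of all genes) and 1 before it, again Slc17a7 (7.10%). By estimate, 2 members stood higher after furosemide and 3 lower. The median absolute log2 fold change was 0.05 over the 5 members and 0.06 over all tested genes. These medians cover unlike levels, since all members but Slc17a7 averaged over 100 CPM, as did only 2231 of the tested genes.

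**Figure D1:**
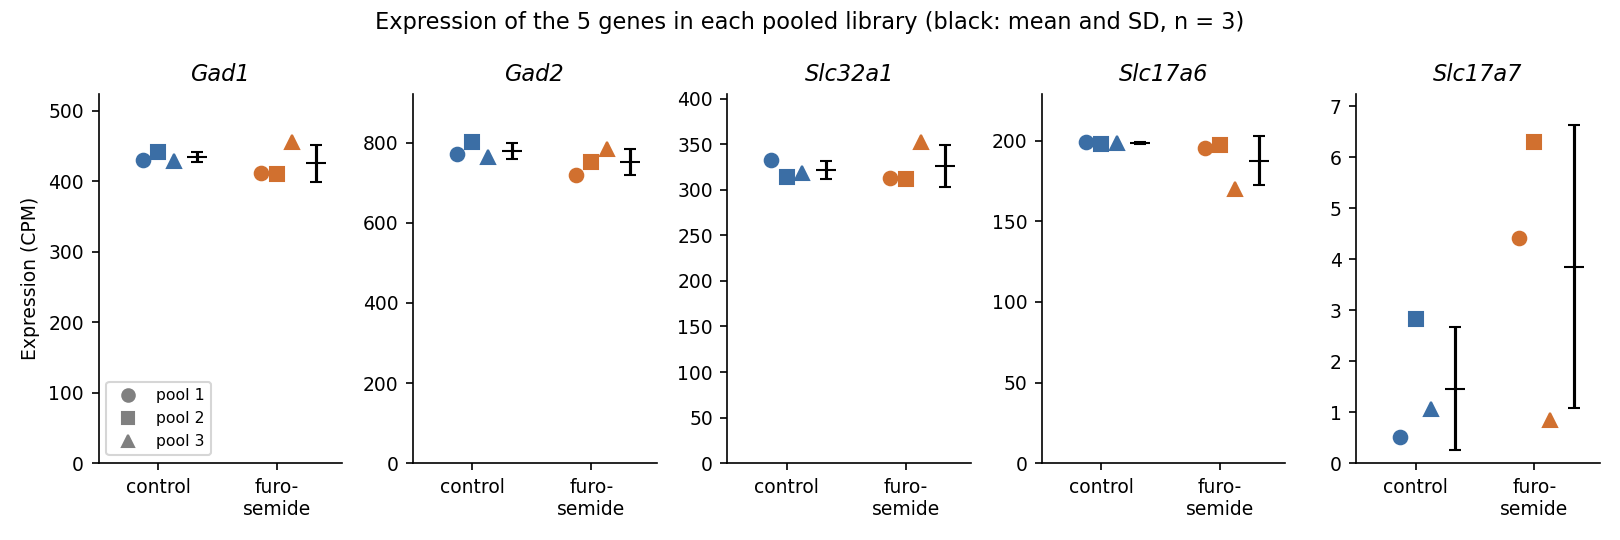
Expression of the 5 genes in CPM (vertical axes from 0, 1 panel per gene) in the 3 control and 3 furosemide libraries, with symbols for pools 1 to 3 and the mean and SD in black. Levels of Gad1, Gad2, Slc32a1 and Slc17a6 lie close together in all 6 libraries, while Slc17a7 runs from 0.51 to 6.31 CPM.

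Gad1, the gene for GAD67, stood at 431, 442 and 429 CPM in control libraries 1, 2 and 3, and at 412, 410 and 456 CPM in furosemide libraries 1, 2 and 3. The groups overlapped, because furosemide 3 was the highest of the 6 libraries and the other furosemide libraries were the lowest. The control mean was 434 ± 6.997 CPM and the furosemide mean 426 ± 26.3 CPM (SD, n = 3 each). The log2 fold change, -0.03, had a standard error of 0.04, and its 95% interval ran from -0.11 to 0.06 (edgeR adjusted p = 0.908).

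Gad2, the gene for GAD65, was at 770, 802 and 763 CPM in the controls and at 720, 751 and 784 CPM after furosemide. Control 2 was the highest library and furosemide 1 the lowest, and the groups overlapped through furosemide 3 alone. The means were 779 ± 20.7 CPM and 751 ± 32.3 CPM (SD, n = 3 each). The log2 fold change was -0.05 (standard error 0.04, edgeR adjusted p = 0.781), with an interval of -0.13 to 0.03.

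Slc32a1, the vesicular GABA transporter gene, was at 333, 314 and 318 CPM in the controls and at 313, 312 and 353 CPM after furosemide. Furosemide 3 again stood highest, and furosemide 1 and 2 lay just under the lowest control. The means were 322 ± 9.77 CPM and 326 ± 23.3 CPM (SD, n = 3 each), with a log2 fold change of 0.02 (interval -0.08 to 0.12, edgeR adjusted p = 0.949). Without furosemide 3 the estimate turned to -0.04, with an adjusted p of 0.834 in the same edgeR test.

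Slc17a6, the gene for VGLUT2, was at 199, 198 and 198 CPM in the controls and at 195, 197 and 170 CPM after furosemide. It was the 1 member whose groups did not overlap, as was the case for 13.5% of all tested genes. Furosemide 1 and 2 nevertheless lay close below the controls, and only furosemide 3 was clearly lower. The means were 198 ± 0.732 CPM and 188 ± 15.2 CPM (SD, n = 3 each). The log2 fold change, -0.08, had a standard error of 0.05 and an interval of -0.18 to 0.02 (edgeR adjusted p = 0.703). Without furosemide 3 the log2 fold change was -0.02 (edgeR adjusted p = 0.954). The coefficient of variation of the controls, 0.369%, was smaller than the 1.54% that counting error alone gives at the mean count of Slc17a6.

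For these 4 genes the difference averaged over the tissue was estimated within narrow bounds by the edgeR fit. Its intervals use a variance drawn partly from other genes, and these 4 varied more between pools than most genes of their level. Intervals from the spread of each gene alone were not computed and could be wider. The 95% interval of the fold change lay within 1.2-fold in either direction for all 4, as it did for 98.8% of the 2231 genes averaging at least 100 CPM and for 57.7% of all tested genes. The interval ran from 0.923 to 1.04 for Gad1, from 0.913 to 1.02 for Gad2, from 0.947 to 1.08 for Slc32a1 and from 0.880 to 1.02 for Slc17a6. A change confined to some of the cells in the pooled tissue is not bounded in this way.

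**Figure D2:**
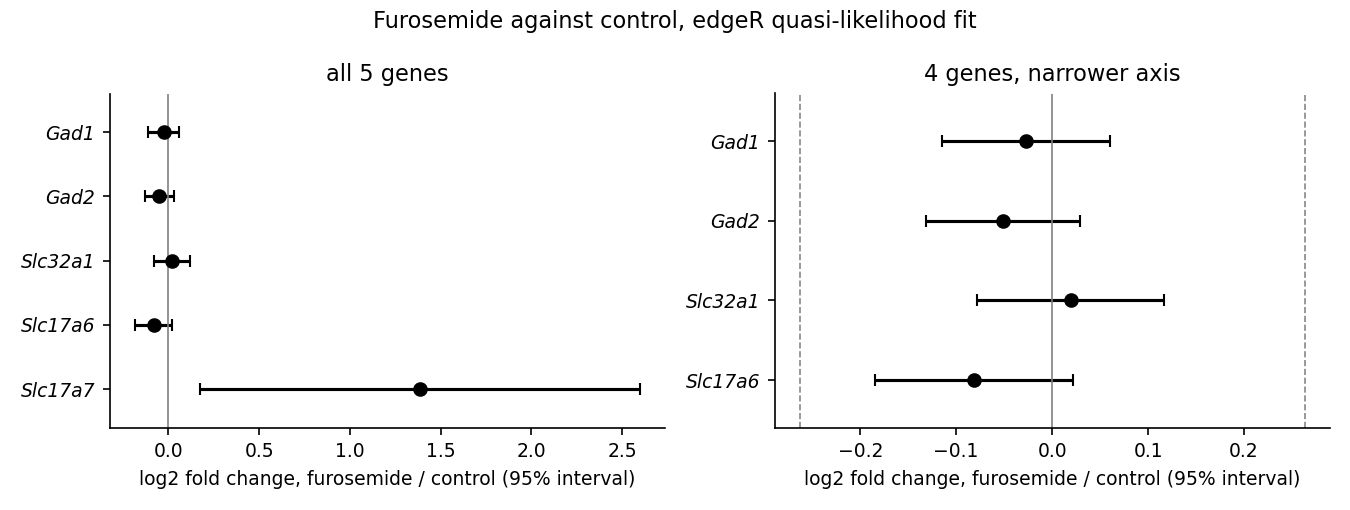
Log2 fold change of furosemide over control (horizontal axis, points) with its 95% interval (bars) from the edgeR quasi-likelihood fit, for all 5 genes at left and for 4 of them on a narrower axis at right, where dashed lines mark a 1.2-fold difference. The intervals of Gad1, Gad2, Slc32a1 and Slc17a6 include 0 and lie between the dashed lines, and that of Slc17a7 runs from 0.17 to 2.60.

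Slc17a7, the gene for VGLUT1, behaved differently. It was counted 11, 61 and 22 times in control libraries 1, 2 and 3 and 99, 138 and 19 times in furosemide libraries 1, 2 and 3. These counts correspond to 0.51, 2.82 and 1.06 CPM in the controls and to 4.41, 6.31 and 0.85 CPM after furosemide. Furosemide 1 and 2 were the highest of the 6 libraries, whereas furosemide 3 lay below control 2 and control 3, so the groups overlapped. Exact Poisson 95% intervals, which cover counting error only, were 5.5 to 19.7 counts in control 1, 46.7 to 78.4 in control 2 and 13.8 to 33.3 in control 3. They were 80.5 to 120.5 counts in furosemide 1, 115.9 to 163 in furosemide 2 and 11.4 to 29.7 in furosemide 3. Within each group, the interval of the highest library therefore lay wholly above that of the lowest.

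The control mean of Slc17a7 was 1.46 ± 1.21 CPM and the furosemide mean 3.85 ± 2.77 CPM (SD, n = 3 each). The log2 fold change, 1.39, had a standard error of 0.56, which gives a 2.61-fold difference and an interval from 1.13-fold to 6.05-fold. This did not pass the threshold of the edgeR quasi-likelihood test (unadjusted p = 0.0279 and adjusted p = 0.551 by edgeR). By unadjusted p it ranked 822 among the 16344 genes. The unadjusted p was 0.155 in DESeq2, which gave Slc17a7 no adjusted p, 0.0726 in limma-voom and 0.225 with robust edgeR dispersions. Of 15 alternatives, 8 gave an unadjusted p under 0.05, among them 0.00301 without a low-count filter in edgeR, and no adjusted p was under 0.265. The alternatives reuse the same counts, so they are not separate evidence. For most of them the share of all genes under 0.05 was not computed. Leaving out control 2 raised the log2 fold change to 2.29 (edgeR adjusted p = 0.468), leaving out furosemide 3 raised it to 1.86 (edgeR unadjusted p = 0.000466, adjusted p = 0.265), and leaving out furosemide 2 lowered it to 0.84 (edgeR adjusted p = 0.825).

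The spread between pools of the same group separated Slc17a7 from the other members. The coefficient of variation between pools, averaged over both groups as a root mean square, was 77.4% for Slc17a7, against 13.1% expected from counting error. Among 1419 tested genes within 1.5-fold of its mean CPM, 99.8% had a value no larger, and their median was 14.3%. Its highest library stood 12.4-fold above its lowest. This range ranked 5 among the 15191 genes averaging at least 1 CPM, of which 32 had a range of 4-fold or more. The other genes of such a range did not follow its pattern closely, with a highest Pearson correlation with Slc17a7 of 0.627 over the 6 libraries (log2 of CPM plus 0.1).

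The remaining members also varied more than most genes of their level, though by small amounts. The coefficient of variation between pools was 4.51% for Gad1, 3.58% for Gad2, 5.49% for Slc32a1 and 5.75% for Slc17a6. The medians of genes within 1.5-fold of their level were 2.69%, 2.47%, 2.63% and 2.84%. The shares of such genes with a value no larger were 90.4% for Gad1, 82.0% for Gad2, 94.7% for Slc32a1 and 94.6% for Slc17a6. For all 4 the furosemide pools spread more widely than the control pools, with 6.18% against 1.61% for Gad1 and 8.12% against 0.369% for Slc17a6. The corresponding values were 4.30% against 2.66% for Gad2 and 7.15% against 3.04% for Slc32a1. For Gad1, Slc32a1 and Slc17a6, furosemide 1 and 2 lay close together (412 and 410, 313 and 312, 195 and 197 CPM). The wider spread of these genes after furosemide thus rested on furosemide 3. The share of all tested genes with a wider furosemide spread was not computed, and the difference in spread was not tested.

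**Figure D3:**
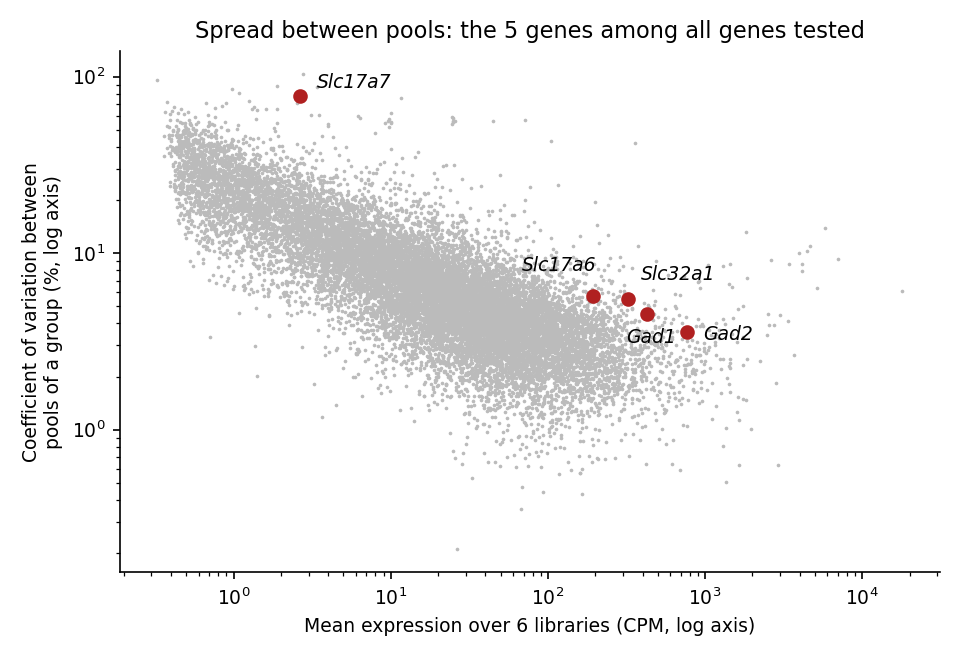
Coefficient of variation between pools of a group (vertical log axis, percent) against mean CPM over the 6 libraries (horizontal log axis) for all 16344 tested genes in grey and the 5 members in red. Slc17a7, at 77.4%, lies near the upper edge of genes of its level, and the other members lie in the upper part of theirs, between 3.58% and 5.75%.

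The furosemide 3 library stood at the edge of the range for most of these genes, and it was singled out after its values were seen. Against the mean log2 level of the other 5 libraries, furosemide 3 was 7.48% higher for Gad1, 3.07% higher for Gad2 and 11.0% higher for Slc32a1. For Slc17a6 the same log2 difference was -0.22 and for Slc17a7 it was -1.31. Both glutamate transporter genes lay below that mean in the library in which the GABA genes lay above it. At 0.85 CPM, however, Slc17a7 in furosemide 3 lay within the control range of 0.51 to 2.82 CPM. Furosemide 1 and 2, at 4.41 and 6.31 CPM, raised the mean it was set against. Among the 2231 genes of 100 CPM or more, 0.986% stood as far from the other libraries in furosemide 3 as Slc17a6 did, 3.05% as far as Slc32a1, 9.91% as far as Gad1 and 45.8% as far as Gad2. No marker of neighbouring regions or other cell types could be set beside this, for lack of symbols.

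**Figure D4:**
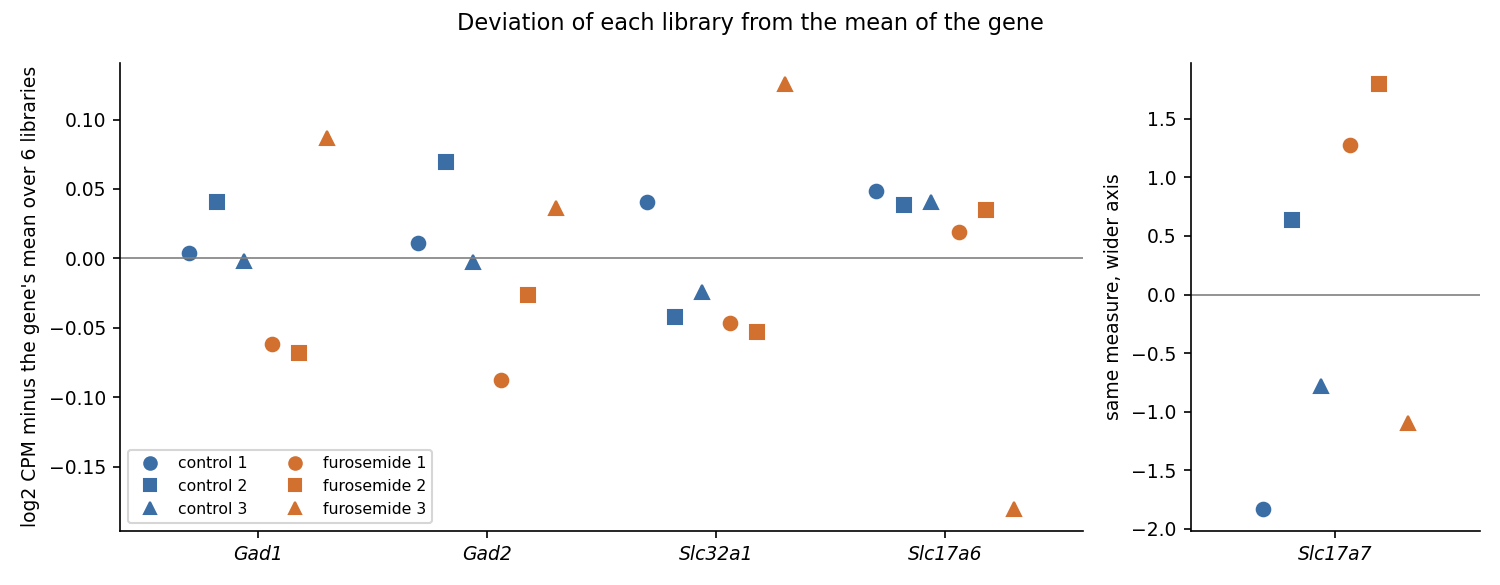
Difference between log2 CPM in each library and the mean over the 6 libraries for each gene (vertical axes, wider for Slc17a7 at right), with colours for the group and symbols for the pool. The furosemide 3 library (orange triangle) is the highest for Gad1 and Slc32a1, the second highest for Gad2 and the lowest for Slc17a6, at -0.18.

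Count ratios within a library do not depend on its total, but they rest on the same counts and are no separate evidence. Furosemide 3 stood apart in the ratios of GABA genes to Slc17a6, which share the gene that lay low in that library. The balance of the decarboxylase genes was steady: the Gad1 count was 55.9%, 55.1% and 56.2% of the Gad2 count in the controls and 57.2%, 54.6% and 58.2% after furosemide. The summed Gad1 and Gad2 counts were 6.03, 6.29 and 6.02 times the Slc17a6 count in the controls and 5.79, 5.88 and 7.30 times after furosemide. Furosemide 3 stood above all other libraries, and furosemide 1 and 2 below all controls. The Slc32a1 count was 1.67, 1.59 and 1.60 times that of Slc17a6 in the controls and 1.60, 1.58 and 2.08 times after furosemide, with furosemide 3 again apart. The mean log2 difference between groups, furosemide minus control, was 0.02 for Gad1 to Gad2, 0.04 for summed Gad1 and Gad2 to Slc17a6 and 0.10 for Slc32a1 to Slc17a6. Without furosemide 3 the last became -0.03 and the one before it -0.07.

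Slc17a7 was counted far less often than Slc17a6 in every library. Its count was 0.256%, 1.43% and 0.534% of the Slc17a6 count in the controls and 2.26%, 3.19% and 0.500% after furosemide. Control 1 was lowest, and furosemide 3 lay between control 1 and control 3. The mean log2 ratio was -7.43 ± 1.24 in the control group and -6.03 ± 1.42 in the furosemide group (SD, n = 3 each), a difference of 1.40 that was no larger than the spread within the furosemide group. Read counts of these genes also depend on transcript length, so the ratio compares libraries and does not give relative numbers of molecules.

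**Figure D5:**
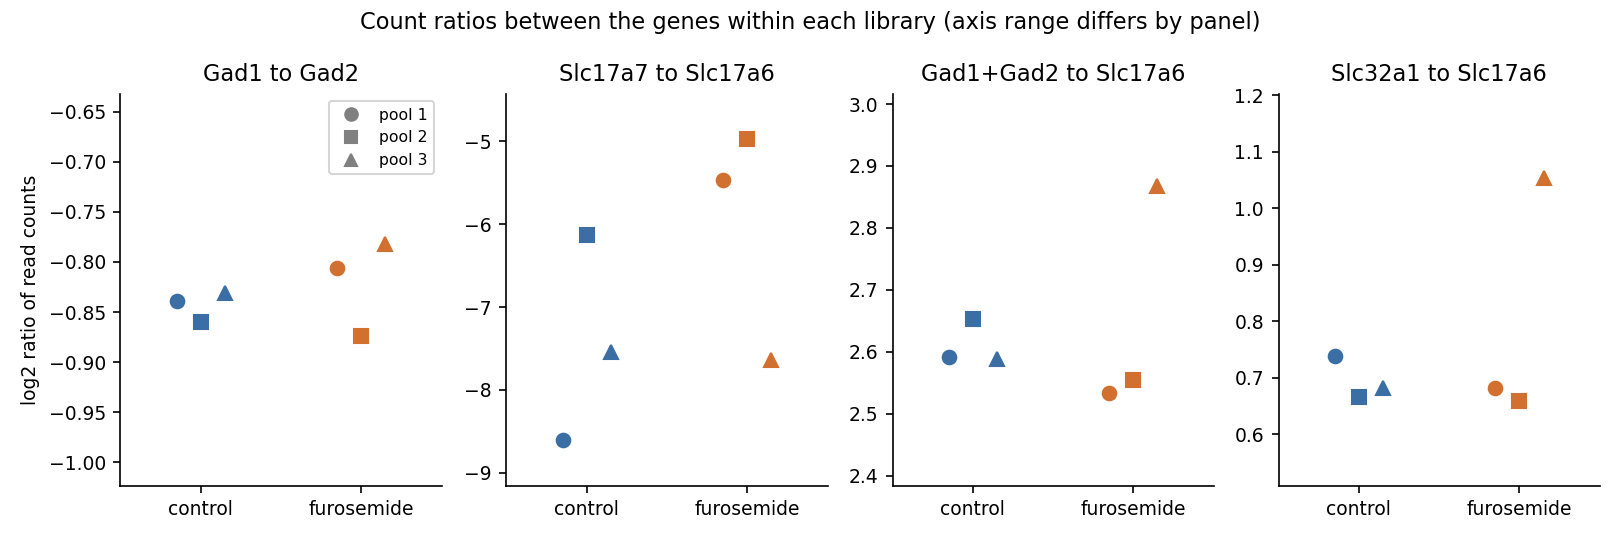
Log2 ratio of read counts between member genes within each library (vertical axes, range differs by panel) for the control and furosemide groups, with symbols for pools 1 to 3. The furosemide 3 library (triangle) lies above the other libraries for summed Gad1 and Gad2 to Slc17a6, at 2.87, and for Slc32a1 to Slc17a6, at 1.05, and near the low end for Slc17a7 to Slc17a6, at -7.64.

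Across the 6 libraries, as a description over few points that share their libraries, log2 CPM of Gad1 had a Pearson correlation of 0.824 with Gad2 (Spearman 0.886) and of 0.757 with Slc32a1 (Spearman 0.829). Gad2 and Slc32a1 were less alike, at 0.40 (Spearman 0.60). Slc17a6 stood at -0.831 with Slc32a1 by Pearson but at 0.0857 by Spearman. Furosemide 3 was the highest library for one of these genes and the lowest for the other. Slc17a7 stood at -0.736 with Slc32a1 (Spearman -0.943) and at 0.293 with Slc17a6 (Spearman -0.371). The vesicular transporter genes of glutamate thus did not follow each other over the libraries.

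Of 10652 other genes averaging at least 10 CPM, ENSRNOG00000059840 had the pattern most like the mean of Gad1, Gad2 and Slc32a1 over the 6 libraries (Pearson 0.991). Its control mean was 73.6 ± 2.16 CPM and its furosemide mean 71.2 ± 7.91 CPM (SD, n = 3 each). ENSRNOG00000011340 was most like Slc17a6 (Pearson 0.990, Spearman 0.543), at 64.8 ± 0.350 CPM and 62.9 ± 2.88 CPM. ENSRNOG00000049895 was most like Slc17a7 by Pearson correlation (0.995, Spearman 1) but ran only from 9.27 to 10.9 CPM, a range of 1.18-fold. Each is the highest of 10652 correlations over 6 libraries, so the values are high by choice, and these identifiers were not paired with symbols.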

How the data were processed

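The authors deposited unnormalized counts of reads per gene for 6 PVN libraries. Per the submitters' processing notes, the tools were FastQC, TopHat, HTSeq and edgeR. Their versions, the genome build and the annotation were not given in the sources used here. Per the labels' protocols, RNA was extracted with QIAzol and RNeasy, and libraries came from a TruSeq mRNA kit, which selects polyadenylated RNA. Column names gave each library's group and number.

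In R 4.3.3, genes were kept by filterByExpr of edgeR 4.0.16 and scaled by TMM factors (0.994 to 1.01). Furosemide was compared with control by the quasi-likelihood F test over all 16344 genes, with Benjamini-Hochberg adjustment at 0.05. Standard errors are the log2 fold change divided by the square root of F. The fit was tested on data simulated from levels and variances estimated on these libraries. Such data cannot show how its intervals hold for genes in which a library stands apart. Members and lists were chosen with earlier results of these data known. Named were the members and, for each of 3 patterns, the gene of at least 10 CPM with the highest correlation. None of the 47357 genes of the RefSeq reference (0) carries an Ensembl identifier there, so the lists of GABA and glutamate pathway genes and of cell type markers could not be applied, and symbols come from the list of members. Alternatives used DESeq2 1.42.0 and limma 3.58.1, among others.

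No libraries were copies: over genes with at least 10 counts in a pair, squared differences within groups averaged 2.60 to 5.67 times sampling noise. The labels do not say that the pools were processed separately, so p-values refer to these pools only. The edgeR test sets the difference between groups against a variance drawn from the spread between pools and partly from other genes.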

Additional observations from a re-analysis of the deposited data

How the results depend on the processing

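Over 15 alternatives for each of the 5 genes, 0 of the 75 values passed an adjusted p of 0.05 (DESeq2 gave Slc17a7 no adjusted p), and 1 changed direction, Slc32a1 without furosemide 3 (-0.041). Leaving out 1 library gave log2 fold changes of -0.08 to -0.0002 for Gad1, -0.08 to -0.02 for Gad2, -0.041 to 0.050 for Slc32a1, -0.12 to -0.02 for Slc17a6 and 0.84 to 2.29 for Slc17a7. It gave differences in log2 ratio of 0.004 to 0.05 for Gad1 to Gad2, 0.81 to 2.21 for Slc17a7 to Slc17a6, -0.07 to 0.10 for summed Gad1 and Gad2 to Slc17a6 and -0.03 to 0.17 for Slc32a1 to Slc17a6. The number of genes called among all tested was 28 without a low-count filter, 40 in DESeq2, 45 in the exact test, 4 with robust dispersions and 0 to 17 without 1 library (17 without control 1, 1 without control 3), and no member was among them. The cause was not tested. With a replicate block 1 gene was called, which was no member, and the log2 fold change of Slc17a7 was 1.38 (edgeR unadjusted p = 0.00358, adjusted p = 0.483). The labels do not say that a replicate number marks a shared day, batch or animal, so the numbers were not treated as pairing. Deviations of same-numbered libraries had correlations of -0.056, -0.016 and -0.093 over all tested genes. Genes of low count are included, so these values cannot show whether libraries were paired. Levels per length and their alternative were not run, since no transcript lengths were used. Among the members, counting error was largest for Slc17a7, with 11 to 138 counts. Its coefficient of variation between pools, 77.4%, was still far above the 13.1% expected from counting error.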
